A study of Mus musculus with 30 samples.

Results

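The 9 genes described here encode the chains of the collagens that form or coat the tendon fibril: Col1a1 and Col1a2 of type I, Col3a1 of type III, Col5a1, Col5a2 and Col5a3 of type V, Col11a1 of type XI, Col12a1 of type XII and Col14a1 of type XIV. They were chosen by name as fibril-forming and fibril-associated collagens of tendon, out of 35972 genes present in both deposited RNA tables. No cut-off on a measured value was used, but earlier results of these data were known when they were chosen. Each of the 9 was found, and each passed the filter on low values, a mean of 10 normalised counts. In the lists of chromatin sites that differed between groups, 37 of 16367 entries carried 1 of these 9 gene names.

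Type I collagen is a heterotrimer of alpha1(I) and alpha2(I) chains and makes up most of the tendon fibril. Type III collagen co-assembles with it and is abundant in young and healing tendon, while the minor fibrillar types V and XI sit inside the fibril, nucleate its assembly and limit its diameter. Types XII and XIV do not form fibrils themselves but decorate their surface. Tendon fibroblasts sense tension through the actomyosin cytoskeleton, and Yap and Taz, co-regulators that reach DNA through TEAD factors, carry part of that signal to the nucleus.

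Primary fibroblasts from the tail tendon of wildtype mice were treated in medium with 0.1% serum with the solvent DMSO, with 10 µM blebbistatin, which inhibits non-muscle myosin II, or with 30 µM Y27632, another small-molecule inhibitor. RNA was sequenced from 3 libraries of each group and ATAC libraries, which mark open chromatin, were made from 3 of each. A further 12 genomic DNA libraries, 3 per group, crossed doxycycline at 10 ng/mL with blebbistatin. These 12 are labelled wildtype as well, and the labels do not give the assay by name, the gene that doxycycline induced, the length of any treatment, or the sex or age of the animals. Nothing in the labels ties libraries to separate animals or cultures, so the p-values below measure only the spread between these samples, which may be technical. The stated aim of the series is the role of mechanical cues and of Yap and Taz in chromatin and transcription, and the comparisons ask which collagen transcripts and collagen-linked sites differ when contractility is inhibited.

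The RNA libraries held 23375386 to 37061737 reads in genes, and the 9 collagens together took 3.95% to 4.16% of them with DMSO, 3.61% to 3.90% with blebbistatin and 3.88% to 4.02% with Y27632. The 11 tendon fibroblast markers fixed for the check, among them Scx, Tnmd and Fmod, were all present in each group. Of these 11, 5 were higher and 2 lower with blebbistatin and 6 higher and 1 lower with Y27632 (limma). Of all genes tested, 26.1% were higher and 26.9% lower with blebbistatin, and 18.1% and 17.8% with Y27632. The summed normalised count of the 11 was 316176 to 328193 with DMSO, 332653 to 344659 with blebbistatin and 341323 to 351634 with Y27632. Markers of macrophages and other leukocytes were present too: their summed normalised count was 5881 to 6514 with DMSO, 8456 to 9492 with blebbistatin and 8568 to 9760 with Y27632, Cd3e was at 0 in every library, and each of the 5 of 7 markers that could be tested was higher under either inhibitor. The 4 endothelial markers summed to 3335 to 3398 with DMSO, 2113 to 2375 with blebbistatin and 2989 to 3191 with Y27632. Almost all of it was Tek, with group means of 3274, 2123 and 2961. The other means went the other way: Cdh5 was at 70.5, 87.0 and 88.9, Kdr at 15.3, 23.4 and 20.2, and Pecam1 at 6.06, 8.21 and 9.55. The part of such cells in the collagen results was not tested. In such bulk libraries fewer cells of a type and less RNA per cell cannot be told apart.

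With blebbistatin, 6 of the 9 collagen transcripts were lower than with DMSO, none was higher, and 3 did not pass the test (limma, adjusted p under 0.05). The decreases ran from 7.98% for Col1a2 to 30.3% for Col11a1, and the transcripts that did not pass were Col3a1, Col5a3 and Col14a1. Of all 14882 genes tested, 53.0% passed in either direction and 26.9% passed as lower, so 6 lower of 9 stood above the share of all genes that fell, while the total called was close to the background. The median log2 change of the 9 was -0.25, and that of all genes tested 0.00. For 5 of the 9 the blebbistatin and DMSO libraries did not overlap, against 60.2% of all genes tested.

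With Y27632, 3 of the 9 transcripts were lower than with DMSO, namely Col5a1, Col5a2 and Col5a3, 1 was higher, Col3a1, and 5 did not pass. Of all 14833 genes tested, 35.9% passed, 18.1% as higher and 17.8% as lower, and the median log2 change of the 9 was -0.08. The lower transcripts were the 3 type V chains, and none of the other 6 passed as lower. The groups did not overlap for 4 of the 9, against 48.1% of all genes. Without DMSO replicate 3, Col3a1 no longer passed as higher and 5 were called lower, and without DMSO replicate 2, 2 were called higher. The comparisons with DMSO share the same 3 DMSO libraries and are therefore not independent of each other.

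**Figure D1:**
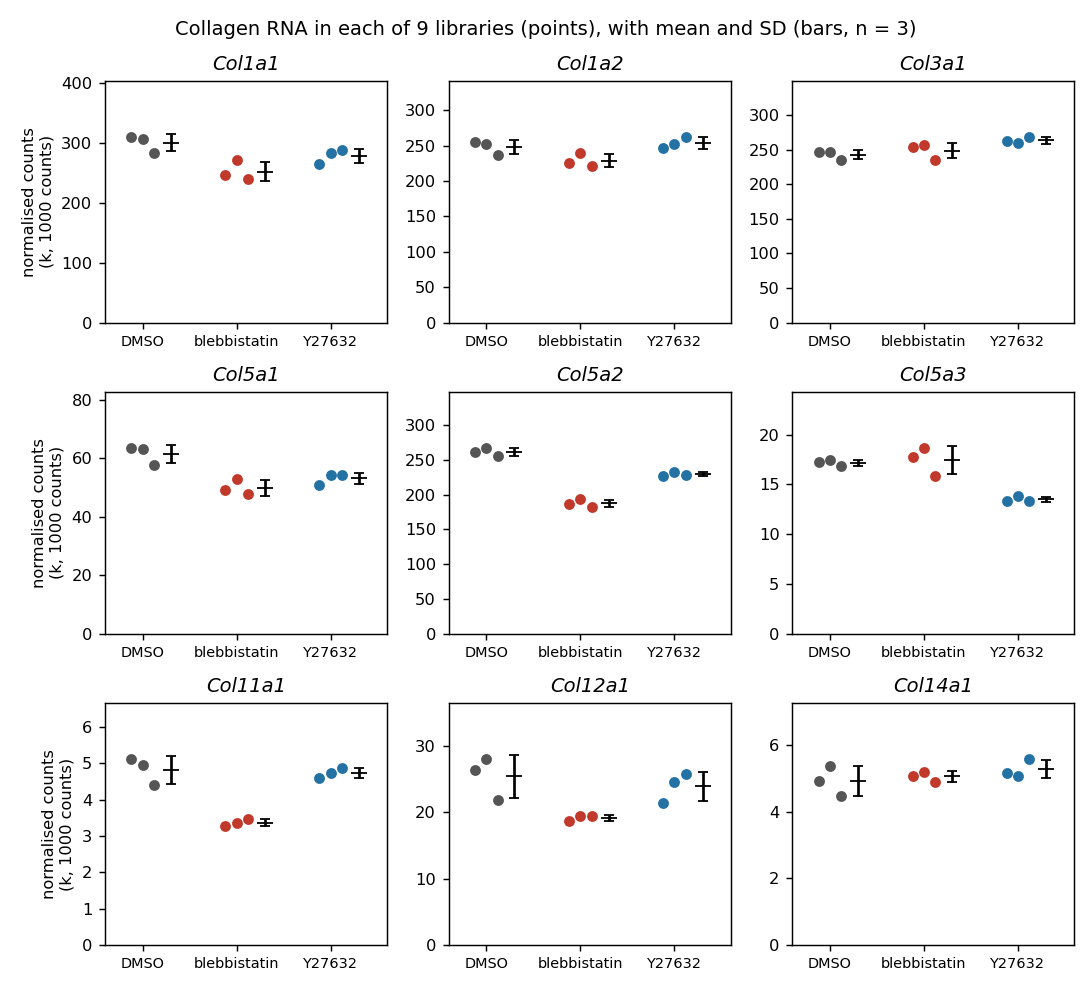
Normalised counts in k, units of 1000 (vertical axes, starting at 0) of each collagen transcript in the 3 DMSO, 3 blebbistatin and 3 Y27632 libraries; points are libraries, and the black bar beside them is the mean with its SD (n = 3). For Col5a2 the 3 groups lie apart, for Col5a3 only the Y27632 libraries lie below the rest, and for Col11a1 only the blebbistatin libraries do.

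The chains of type I collagen changed by unequal amounts in these libraries, though their ratio, given below, did not pass a test. Levels are normalised counts, meaning reads scaled for library depth, written in k for 1000 counts, in the order of replicates 1, 2 and 3. Col1a1, which encodes the alpha1(I) chain, was at 309.9, 305 and 283 k in the DMSO libraries, at 246, 270.5 and 239 k with blebbistatin, and at 265, 283 and 287 k with Y27632. Every blebbistatin library was below every DMSO library, and the Y27632 libraries overlapped those of DMSO. Col1a1 fell by 16.1% with blebbistatin, which on the log2 scale was -0.25 with a standard error of 0.051 (limma adjusted p = 0.00115). With Y27632 its log2 change was -0.10 with a standard error of 0.046 and did not pass (limma adjusted p = 0.0939), although edgeR and DESeq2 on the recovered reads placed it at adjusted p = 0.0373 and 0.0452, the authors' deposited table at 0.0396, and limma without DMSO replicate 3 at 0.0223.

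Col1a2, which encodes the alpha2(I) chain, was at 255, 252 and 237 k with DMSO, at 226, 239 and 221 k with blebbistatin and at 246, 252 and 262 k with Y27632. The highest blebbistatin library lay above the lowest DMSO library, so these groups overlapped. Its log2 change with blebbistatin was -0.12 with a standard error of 0.042 (limma adjusted p = 0.0314). That call was lost without DMSO replicate 1 (adjusted p = 0.102), without DMSO replicate 2 (0.111), without blebbistatin replicate 1 (0.120) and without blebbistatin replicate 3 (0.115). With Y27632 its log2 change was 0.03, with a 95% interval from -0.06 to 0.12 (limma adjusted p = 0.574).

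Because reads of 2 transcripts in the same library share its depth, their ratio does not depend on the scaling between libraries. The ratio of Col1a1 to Col1a2 reads was 1.21, 1.21 and 1.20 in the DMSO libraries, 1.09, 1.13 and 1.08 with blebbistatin and 1.08, 1.12 and 1.09 with Y27632. Neither inhibitor group overlapped DMSO, and the inhibitor groups overlapped each other. The log2 ratio was lower by a difference of -0.13 with blebbistatin and -0.14 with Y27632, each with an exact two-sided permutation p of 0.1, the smallest that 3 against 3 libraries can give (0.133 after adjustment over 24 ratio tests). Between the inhibitors the difference was 0.00 (exact permutation p = 0.9).

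Col3a1, the single chain of the type III homotrimer, was at 246, 246 and 235 k with DMSO, at 253, 256 and 236 k with blebbistatin and at 262, 259.8 and 269 k with Y27632. The Y27632 libraries lay above all DMSO libraries, and the blebbistatin libraries overlapped them. Its log2 change was 0.12 with a standard error of 0.037 under Y27632 (limma adjusted p = 0.0220), a call lost with the replicate number as a block (adjusted p = 0.105) and without DMSO replicate 3 (adjusted p = 0.0665) or Y27632 replicate 3 (0.0849). Under blebbistatin it was 0.03, with a 95% interval from -0.06 to 0.12 (limma adjusted p = 0.551). Measured against Col1a1 in the same library, Col3a1 was higher under either inhibitor, by 0.28 (blebbistatin) and 0.22 (Y27632) on the log2 scale with no overlap with DMSO, and each exact permutation p was 0.1.

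The 3 type V chains gave 3 different patterns of overlap between the groups. Col5a2, which encodes alpha2(V), was at 262, 267 and 256 k with DMSO, at 187, 193 and 182 k with blebbistatin and at 227, 232 and 229 k with Y27632. The 3 groups did not overlap, with blebbistatin lowest and Y27632 between it and DMSO. Col5a2 fell by 28.5% with blebbistatin, which on the log2 scale was -0.48 with a standard error of 0.036 (limma adjusted p = 2.78e-07), and by 12.3% with Y27632, which on the log2 scale was -0.19 with a standard error of 0.036 (limma adjusted p = 0.00116).

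Col5a1, which encodes the alpha1(V) chain found in nearly all type V molecules, was at 63.5, 63.0 and 57.7 k with DMSO, at 49.0, 52.8 and 47.6 k with blebbistatin and at 50.8, 54.3 and 54.2 k with Y27632. Every inhibitor library was below every DMSO library, and the inhibitor groups overlapped each other. Col5a1 fell by 19.0% with blebbistatin (log2 change -0.30, standard error 0.046, limma adjusted p = 0.000129) and by 13.4% with Y27632 (log2 change -0.21, standard error 0.042, limma adjusted p = 0.00178).

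Col5a3, which encodes the more restricted alpha3(V) chain, was at 17.2, 17.5 and 16.9 k with DMSO, at 17.8, 18.7 and 15.9 k with blebbistatin and at 13.4, 13.8 and 13.3 k with Y27632. Only the Y27632 libraries stood apart from DMSO, and the blebbistatin libraries spread on either side of it. Col5a3 fell by 21.4% with Y27632, which on the log2 scale was -0.35 with a standard error of 0.029 (limma adjusted p = 1.40e-06). With blebbistatin the log2 change was 0.02, with a 95% interval from -0.09 to 0.12 (limma adjusted p = 0.815). Its ratio to Col5a1 within a library was therefore higher with blebbistatin, by 0.32 on the log2 scale, and lower with Y27632, by a difference of -0.14, with no overlap with DMSO in either case and an exact permutation p of 0.1 for each. The ratio of Col5a1 to Col5a2 was higher with blebbistatin by 0.18 (exact permutation p = 0.1) and differed by -0.02 with Y27632 (exact permutation p = 0.6).

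Col11a1 encodes the alpha1(XI) chain, which can replace alpha1(V) in mixed fibril-nucleating molecules. It was at 5.12, 4.95 and 4.40 k with DMSO, at 3.27, 3.35 and 3.46 k with blebbistatin and at 4.59, 4.75 and 4.88 k with Y27632. The blebbistatin libraries lay below all others, and those of Y27632 fell within the DMSO range. With blebbistatin the log2 change was -0.52 with a standard error of 0.051 (limma adjusted p = 2.86e-06), and with Y27632 it was -0.02, with a 95% interval from -0.13 to 0.08 (limma adjusted p = 0.763). The Col11a1 to Col5a1 ratio accordingly differed from DMSO by -0.22 with blebbistatin and by 0.19 with Y27632, without overlap (exact permutation p = 0.1 for each).

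Of the fibril-associated collagens, Col12a1 was at 26.4, 28.0 and 21.8 k with DMSO, at 18.6, 19.4 and 19.4 k with blebbistatin and at 21.5, 24.6 and 25.7 k with Y27632. The DMSO libraries were spread widely, and DMSO replicate 3 was the lowest of them. The blebbistatin libraries were below all DMSO and all Y27632 libraries. Col12a1 fell by 24.4% with blebbistatin (log2 change -0.40, standard error 0.070, limma adjusted p = 0.000365). With Y27632 its log2 change of -0.08 did not pass (limma adjusted p = 0.455), and without DMSO replicate 3 it was -0.19 and passed (limma adjusted p = 0.0261).

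Col14a1 was at 4.93, 5.37 and 4.47 k with DMSO, at 5.07, 5.20 and 4.89 k with blebbistatin and at 5.17, 5.07 and 5.58 k with Y27632, and the groups overlapped. Its log2 changes were 0.04 with blebbistatin, with a 95% interval from -0.08 to 0.16 (limma adjusted p = 0.578), and 0.10 with Y27632, with an interval from -0.02 to 0.22 (limma adjusted p = 0.179). Without DMSO replicate 2 the latter was 0.17 and passed (limma adjusted p = 0.0331). The ratio of Col14a1 to Col12a1 within a library was higher by 0.44 on the log2 scale with blebbistatin and by 0.18 with Y27632, without overlap with DMSO (exact permutation p = 0.1 for each).

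**Figure D2:**
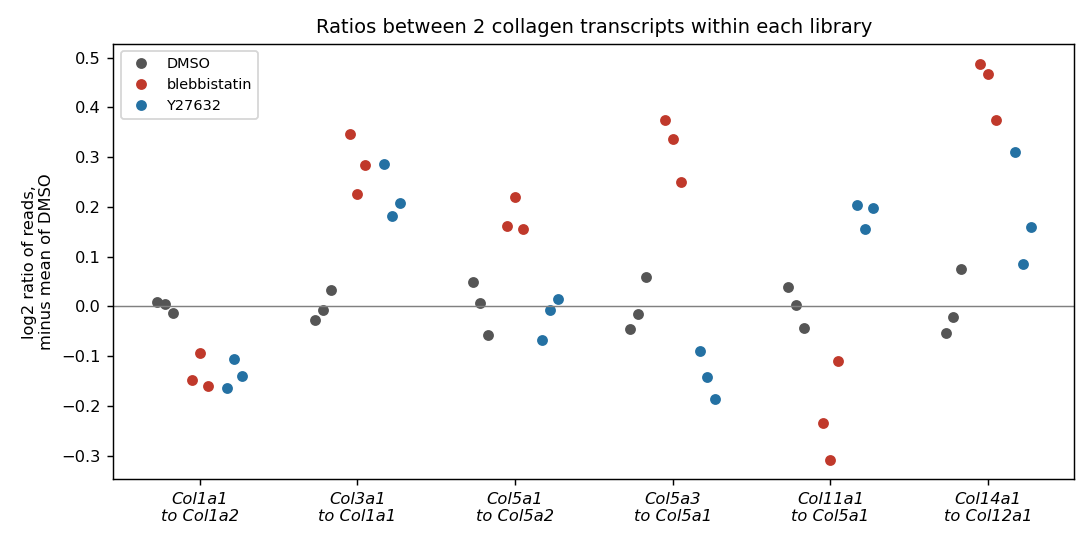
Log2 ratio of the reads of 2 collagen transcripts within each library, minus the mean of the 3 DMSO libraries (vertical axis), for 6 ratios; each point is a library. The Col1a1 to Col1a2 ratio lies below DMSO in all 6 inhibitor libraries, while the Col5a3 to Col5a1 and Col11a1 to Col5a1 ratios lie on opposite sides of DMSO under blebbistatin and Y27632.

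The inhibitors were then compared directly, in 1 fit over the 9 libraries. With blebbistatin 5 of the 9 transcripts were lower than with Y27632, 1 was higher and 3 did not pass (edgeR quasi-likelihood test, adjusted p under 0.05). Of all 14925 genes tested, 53.1% passed in either direction, 26.2% as lower and 26.9% as higher. The groups did not overlap for 6 of the 9 transcripts, against 60.5% of all genes. Each inhibitor was used at a single dose, so these are differences between 2 treatments, not between potencies.

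The largest of these differences was Col11a1, lower with blebbistatin by a log2 difference of -0.49 with a standard error of 0.048 (edgeR adjusted p = 1.11e-06). Col12a1 differed by -0.31 (adjusted p = 0.00312), Col5a2 by -0.28 (2.01e-06), Col1a2 by -0.14 (0.00568) and Col1a1 by -0.14 (0.0250), all by edgeR. Col5a3 went the other way, with a log2 difference of 0.38 and a standard error of 0.046 (edgeR adjusted p = 9.74e-06). The Col1a1 libraries of the inhibitors overlapped, and its call was lost without blebbistatin replicate 1 (adjusted p = 0.0729), blebbistatin replicate 3 (0.0857), Y27632 replicate 2 (0.0821) or Y27632 replicate 3 (0.0939).

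The 3 transcripts that did not pass had narrow intervals. The log2 difference of Col5a1 was -0.08, with a 95% interval from -0.18 to 0.01 (edgeR adjusted p = 0.129), that of Col3a1 was -0.08, from -0.15 to -0.0034 (0.0731), and that of Col14a1 was -0.05, from -0.17 to 0.07 (0.451). Without blebbistatin replicate 2, Col3a1 at -0.11 and Col5a1 at -0.13 passed as lower (edgeR adjusted p = 0.0153 and 0.0141).

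**Figure D3:**
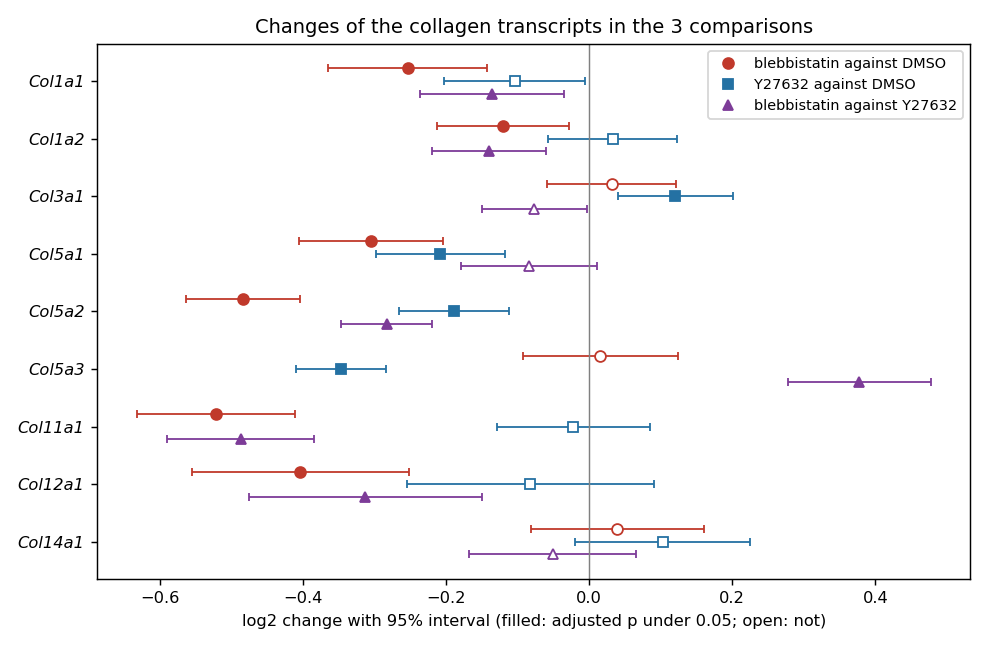
Log2 change (horizontal axis) of each collagen transcript with its 95% interval for blebbistatin against DMSO (circles, limma), Y27632 against DMSO (squares, limma) and blebbistatin against Y27632 (triangles, edgeR); filled symbols passed an adjusted p of 0.05. Col11a1 and Col12a1 are low under blebbistatin and near 0 under Y27632, and Col5a3 shows the reverse.

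Among themselves, the profiles of the 9 transcripts over the 9 libraries were compared by the root mean square difference of log2 values centred on each gene. The closest pair was Col1a1 and Col5a1, at 0.04, and the farthest was Col5a3 and Col11a1, at 0.37. Over the 11446 genes whose mean reached 100 normalised counts, the profiles nearest to Col1a1 were those of Ndufs8, Insr and Map1lc3a, those nearest to Col3a1 Rrp1, Cstf2t and Akr1a1, and those nearest to Col5a3 Dtx4, Sh3bp4 and Maf. For Col12a1 they were Cep350, Akap9 and Nbeal1, and for Col14a1 Cbx5, Dennd5b and Traf6. The nearest gene of these 5 collagens lay at 0.02 to 0.04, where the median gene lay at 0.15 to 0.23. These are descriptions of 9 libraries that share 3 groups.

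Collagen chains are hydroxylated, folded and glycosylated in the endoplasmic reticulum before large carriers take them to the Golgi. Of 22 genes listed for these steps, 21 were tested, and with blebbistatin 15 were lower, 1 was higher and 5 did not pass (limma), with a median log2 change of -0.26. With Y27632, 7 were lower, 3 were higher and 11 did not pass, with a median of -0.06. Of all genes, 26.9% were lower and 26.1% higher with blebbistatin, and 17.8% and 18.1% with Y27632. The share of this list that fell stood above that of all genes under either inhibitor, a difference that was not tested. In the direct comparison 16 of the 21 were lower with blebbistatin than with Y27632 and 1 was higher (edgeR), where 26.2% of all genes were lower and 26.9% higher.

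The largest decreases in this list with blebbistatin were those of Sec23a, a coat subunit of the vesicles that leave the endoplasmic reticulum, and Creb3l1, a transcription factor that promotes collagen export. Sec23a went from 6547 ± 160 normalised counts (SD, n = 3) with DMSO to 3909 ± 32.1 with blebbistatin and 6002 ± 173 with Y27632. Its log2 change with blebbistatin was -0.75 with a standard error of 0.031 (limma adjusted p = 1.49e-09). Creb3l1 changed by -0.73 with blebbistatin (limma adjusted p = 2.30e-08) and by -0.15 with Y27632 (limma adjusted p = 0.00598). The only member of this list called higher with blebbistatin was Colgalt2, a galactosyltransferase acting on collagen hydroxylysine, which went from 12.9 ± 1.49 to 36.9 ± 6.45 normalised counts (SD, n = 3) and changed by 1.43 on the log2 scale (limma adjusted p = 0.000393). Its close relative Colgalt1 had a log2 change of 0.03 with blebbistatin and did not pass (limma adjusted p = 0.393).

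P4ha2, a catalytic subunit of prolyl 4-hydroxylase, fell from 4038 ± 41.3 normalised counts (SD, n = 3) with DMSO to 2704 ± 151 with blebbistatin and 3500 ± 75.7 with Y27632. Its log2 changes were -0.58 with blebbistatin (limma adjusted p = 1.79e-07) and -0.20 with Y27632 (0.000250). The sister subunit P4ha1 changed by -0.33 with blebbistatin (limma adjusted p = 3.75e-06). Prolyl 3-hydroxylases differed: P3h1 changed by -0.26 with blebbistatin (limma adjusted p = 4.76e-05), P3h2 by 0.40 with Y27632 (0.00328), and P3h3 passed with neither inhibitor.

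**Figure D4:**
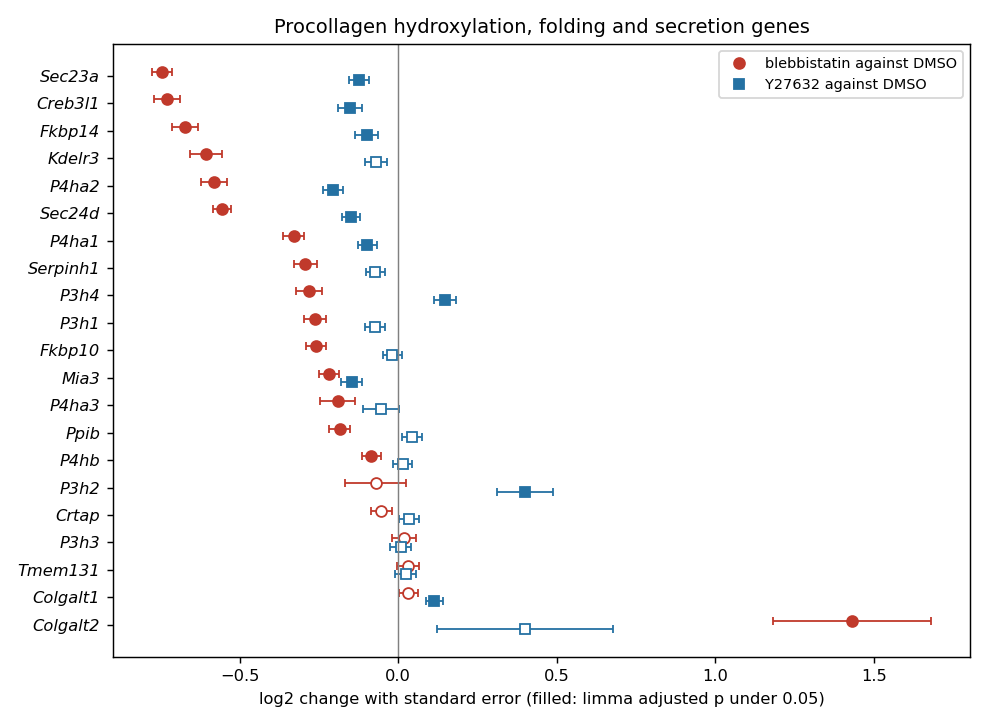
Log2 change (horizontal axis) with its standard error of the 21 tested genes of procollagen hydroxylation, folding and secretion, for blebbistatin against DMSO (circles) and Y27632 against DMSO (squares); filled symbols passed a limma adjusted p of 0.05. With blebbistatin 15 genes lie below 0 with filled symbols, and Colgalt2 lies far to the right.

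Outside the cell, propeptides are cut off and fibrils nucleate. Of 16 genes listed for this, 13 were tested, and 6 were higher and 5 lower with blebbistatin, and 7 higher and 2 lower with Y27632 (limma). Of all genes 53.0% were called with blebbistatin, 26.1% as higher and 26.9% as lower, and 35.9% with Y27632, 18.1% as higher and 17.8% as lower. The count of higher genes with Y27632 was 4 without Y27632 replicate 3, and that of lower genes was 1 without DMSO replicate 2 or Y27632 replicate 1 and with the replicate block. Adamts3, a procollagen N-proteinase, was at 671 ± 52.5 normalised counts (SD, n = 3) with DMSO, at 309.6 ± 9.12 with blebbistatin and at 939 ± 35.8 with Y27632. It thus fell with blebbistatin, by a log2 change of -1.11 (limma adjusted p = 6.13e-08), and rose with Y27632, by 0.49 (4.90e-05), and the direct difference was -1.59 (edgeR adjusted p = 1.12e-10). Its relatives Adamts2 and Adamts14 had log2 changes with blebbistatin of 0.12 (limma adjusted p = 0.0136, lost at 0.0518 without blebbistatin replicate 2) and 0.20 (limma adjusted p = 0.00763).

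Tll1, a C-proteinase, fell under either inhibitor, by log2 changes of -1.19 with blebbistatin (limma adjusted p = 2.66e-07) and -0.50 with Y27632 (0.00164). Tnxb, which encodes tenascin-X, a spacer between fibrils, rose by 1.15 with blebbistatin (limma adjusted p = 1.86e-08) and by 0.47 with Y27632 (5.21e-05). Comp, a glycoprotein that binds fibrillar collagen, rose by 0.60 and 0.56 (limma adjusted p = 3.04e-05 and 0.000138).

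Of 10 collagen receptor and uptake genes 9 were tested, and with blebbistatin 6 were higher and 3 lower, and with Y27632 4 were higher and 2 lower (limma). Of all genes, 26.1% were higher and 26.9% lower with blebbistatin, and 18.1% and 17.8% with Y27632. The last count of 2 genes was 1 without DMSO replicate 1, DMSO replicate 2, Y27632 replicate 1 or Y27632 replicate 3. The collagen-binding tyrosine kinases moved in opposite directions. Ddr1 went from 5462 ± 149 normalised counts (SD, n = 3) to 2863 ± 47.3 with blebbistatin and 4130 ± 166 with Y27632, and Ddr2 changed by 0.70 with blebbistatin (limma adjusted p = 1.61e-08) and 0.22 with Y27632 (0.00163). Ddr1 changed by -0.93 with blebbistatin (limma adjusted p = 3.88e-10) and -0.40 with Y27632 (3.06e-06). Among integrin alpha chains that bind collagen, Itga1 changed by -0.88 and Itga2 by 1.02 with blebbistatin (limma adjusted p = 1.10e-05 and 0.000210). With Y27632 Itga1 changed by -0.34 (limma adjusted p = 0.0204) and Itga2 did not pass (0.920). That Itga1 call was lost without DMSO replicate 1 or 2 or Y27632 replicate 1 or 3. Itga10 rose by 0.76 with blebbistatin and by 0.60 with Y27632 (limma adjusted p = 3.23e-06 and 1.18e-05). Itga11 rose by 0.18 and 0.37 (limma adjusted p = 0.0274 and 0.000209), the former lost without DMSO replicate 1 or 3 or blebbistatin replicate 2 or 3. Lair1, one of the receptors in this list, rose by 0.73 with blebbistatin (limma adjusted p = 0.0250). That call was lost without DMSO replicate 1 (0.0583), DMSO replicate 2 (0.0986) or blebbistatin replicate 2 (0.0824). With Y27632 its log2 change of 0.63 did not pass (limma adjusted p = 0.0552), but it passed without DMSO replicate 3 (0.00955). Lair1 is made mainly by leukocytes, whose markers were higher under either inhibitor as given above. The part of such cells in the Lair1 values was not tested.

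Of 26 regulators of collagen transcription and translation, 25 were tested, and 7 were higher and 9 lower with blebbistatin, and 8 higher and 6 lower with Y27632 (limma), with medians of 0.00 and 0.03. The shares of all genes were 26.1% higher and 26.9% lower with blebbistatin, and 18.1% and 17.8% with Y27632. Of the 4 TEAD factors 3 fell under either inhibitor and Tead2 rose. Tead1 and Tead3 fell with blebbistatin by log2 changes of -1.09 and -1.16 (limma adjusted p = 1.65e-09 and 6.97e-10) and with Y27632 by -0.36 and -0.72 (4.17e-05 and 6.65e-08), and Tead4 fell by log2 changes of -0.92 and -0.94 (1.38e-05 and 2.09e-05). Tead2 rose by 0.43 with blebbistatin (1.03e-06) and by 0.23 with Y27632 (0.000265). Wwtr1, Scx and Smad3 were picked for mention after their values had been seen. Wwtr1, which encodes Taz, rose by 0.33 with blebbistatin and 0.22 with Y27632 (limma adjusted p = 2.52e-06 and 0.000293). Scx, the tendon transcription factor that activates type I collagen genes, passed with neither inhibitor (limma adjusted p = 0.991 with blebbistatin and 0.143 with Y27632).

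Egr1, another activator of tendon collagen genes, went from 863 ± 160 normalised counts (SD, n = 3) to 2968 ± 604 with blebbistatin and 4907 ± 428 with Y27632, which are log2 changes of 1.78 and 2.52 (limma adjusted p = 3.38e-07 and 2.99e-09). Egr2 rose by 2.50 and Cebpb by 1.26 with Y27632 (limma adjusted p = 7.43e-10 and 1.70e-07). With blebbistatin Egr2 rose by 1.02 (limma adjusted p = 3.33e-05) and Cebpb did not pass (0.152). Larp6, which binds the stem-loop of type I collagen messages, rose by 0.78 with blebbistatin (limma adjusted p = 1.92e-05) and had a log2 change of -0.01 with Y27632 (0.930). Smad3, a mediator of TGF-beta signalling, fell by 0.21 with blebbistatin and rose by 0.48 with Y27632 on the log2 scale (limma adjusted p = 0.000186 and 9.31e-07).

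Of 12 other fibrillar and fibril-associated collagens 8 were tested, and with blebbistatin 4 were higher and none lower (limma), where 26.1% of all genes were higher and 26.9% lower. Their median log2 change was 0.36, and its difference from that of the 9 was not tested. Col9a3, a chain of the cartilage collagen type IX, went from 36.9 ± 13.1 normalised counts (SD, n = 3) with DMSO to 193 ± 23.8 with blebbistatin and 51.2 ± 1.78 with Y27632. Its log2 change with blebbistatin was 2.41 (limma adjusted p = 3.12e-06), and that of Col27a1 was 0.85 (4.15e-08). The summed normalised count of 5 cartilage markers was 150.0 to 183 with DMSO, 224 to 247 with blebbistatin and 231 to 242 with Y27632. Most of it was Sox9, with group means of 144, 209.8 and 205, while Acan, Col9a1 and Matn3 were under a mean of 10 in each group. Whether any cartilage cells were present, or had a part in the Col9a3 result, was not tested. Col11a2, which pairs with Col11a1 in type XI molecules, rose by 0.47 with blebbistatin and 0.61 with Y27632 (limma adjusted p = 0.00301 and 0.000481), where Col11a1 itself was lower or did not pass. With Y27632, 2 of the 8 were higher, Col11a2 and Col20a1, and 1 lower, Col16a1, where 18.1% of all genes were higher and 17.8% lower. Col20a1 had a log2 change of 0.23 and Col16a1 of -0.11 (limma adjusted p = 0.0266 and 0.0249). With blebbistatin Col16a1 was higher instead, by 0.16 (limma adjusted p = 0.00426), and Col20a1 did not pass (0.342). The higher count with Y27632 was 1 without DMSO replicate 3, Y27632 replicate 1 or Y27632 replicate 2. The lower count with Y27632 was 0 without DMSO replicate 1, Y27632 replicate 1 or Y27632 replicate 3.

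Promoter sequence was examined to see what the collagens share besides their changes. RefSeq promoter windows of build GRCm38.p6, 250 bases before to 50 after the annotated start, matched 5 of the 9 genes: Col1a2, Col3a1, Col5a1, Col5a3 and Col11a1. Below, 130 bases before the gene are shown for the 3 that responded differently, Col3a1 (higher with Y27632), Col5a3 (lower with Y27632) and Col11a1 (lower with blebbistatin), at chr1:45311408-45311537 on the plus strand, chr9:20815118-20815247 on the minus strand and chr3:114030349-114030478 on the plus strand. Capitals mark matches, on either strand, to the TATA box TATAAA, the CAAT box CCAAT and the GC box GGGCGG.
Col3a1: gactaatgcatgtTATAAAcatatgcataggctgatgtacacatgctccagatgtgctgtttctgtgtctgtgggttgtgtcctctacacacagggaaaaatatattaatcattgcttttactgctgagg
Col5a3: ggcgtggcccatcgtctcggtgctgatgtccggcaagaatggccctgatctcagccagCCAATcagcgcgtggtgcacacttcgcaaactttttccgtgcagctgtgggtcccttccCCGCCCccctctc
Col11a1: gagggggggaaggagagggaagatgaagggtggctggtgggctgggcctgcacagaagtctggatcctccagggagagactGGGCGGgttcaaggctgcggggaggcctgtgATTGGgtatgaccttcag

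The Col3a1 window was poor in G and C, at 35.2% of the 250 bases before the start, where the median of all 32851 windows was 52.4% and the other 4 collagens ranged from 62.0% (Col1a2) to 76.4% (Col5a1). The GC box GGGCGG was found in Col1a2, Col5a1, Col5a3 and Col11a1, and 35.7% of all windows hold it. CCAAT was found in Col1a2, Col5a3 and Col11a1 and is held by 37.4% of windows, and TATAAA was found in Col3a1 only among the 5 and is held by 13.6%. GGAATG, the core of the TEAD motif, was found once, in Col3a1, and is held by 14.7% of windows, and the AP-1 motif TGANTCA, held by 7.81%, was in none of the 5 windows. The motifs do not overlap in sequence, and a match is a description of letters and not a binding site.

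The chromatin lists hold only sites that the authors called different, as group means without values per library, so no test of them was made here and every value is the authors'. The authors' deposited tables give 1 site annotated to these collagens in the ATAC list of blebbistatin against DMSO, 1 in that of Y27632 against DMSO, 2 in that of blebbistatin without doxycycline, 17 in that of doxycycline and 16 in that of blebbistatin with doxycycline. The 17 doxycycline sites were all higher and the other 20 entries all lower. By the authors' deposited tables, a share of 95.8% of all sites in the doxycycline list was higher, and 98.2%, 85.0%, 99.0% and 99.8% of the sites in the other lists, in the order above, were lower, so these directions are those of the lists as a whole. The 37 entries lay at 29 places, with a median distance of 77.3 kb from the annotated transcription start and 5 within 5 kb of it. In the authors' deposited tables no site carries Col1a1 or Col5a3 as its gene name, which is that of the nearest start.

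Col5a2 had the most entries, 15 of the 37 in the authors' deposited tables, and was the only one of the 9 named in all 5 lists. A single intergenic place upstream of it, 77.3 kb from its start on chromosome 1, was listed 4 times. Coordinates are those of the files, whose build the submitters' processing notes name as mm10. In the ATAC list of blebbistatin the site, chr1:45580408-45580836, ranked 2 by p-value of 970 in the authors' deposited table, with a log2 group mean of 7.14 with DMSO and 4.58 with blebbistatin, a log2 fold of -2.56 and an FDR of 0.000155. In the ATAC list of Y27632 it again ranked 2, of 207, in the authors' deposited table, from 7.05 to 5.21, a log2 fold of -1.84 with an FDR of 3.43e-05.

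In the separate libraries of the doxycycline experiment, the authors' deposited table for blebbistatin without doxycycline gives nearly the same interval, again with rank number 2. Its log2 group mean went from 6.97 to 5.02, a log2 fold of -1.95 with an FDR of 2.32e-09. In the doxycycline list of the authors' deposited tables it was higher, from 6.87 without to 8.45 with doxycycline. The log2 fold was 1.59, with an FDR of 1.53e-12 and rank number 89. Rank numbers of collagen sites reach 1373 and 23058 in these lists of 1231 and 7613 sites, so a rank number need not be a place in the list. No site of the list of blebbistatin with doxycycline overlapped the upstream Col5a2 site. The smallest absolute log2 fold in that list is 1, so a smaller decrease at this place would not be listed. The ATAC comparisons share their DMSO libraries, and those of the doxycycline experiment share the group with neither drug. Beside these values, Col5a2 RNA was lower with blebbistatin and, less so, with Y27632, as given above, and RNA was not measured in the libraries analysed here with doxycycline.

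The authors' deposited table of the blebbistatin ATAC list gives, for each site, the positions of a motif it names by its best match, TEAD. The Col5a2 site holds 2 matches, whose starts lie 9 bases apart, so that they share 1 base. They are shown because the site was near the top of 3 lists. Each match is given as deposited, with its core, the reverse complement of the TEAD core, in capitals, and then the 19 bases that the matches cover together.
first match: tcaCATTCCt
second match: tgaCATTCCt
joined: tcaCATTCCtgaCATTCCt
Of the 970 sites in the authors' deposited table, 603 (62.2%) hold at least 1 match and 200 (20.6%) hold 2 or more, so matches in a site of this list are common.

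**Figure D5:**
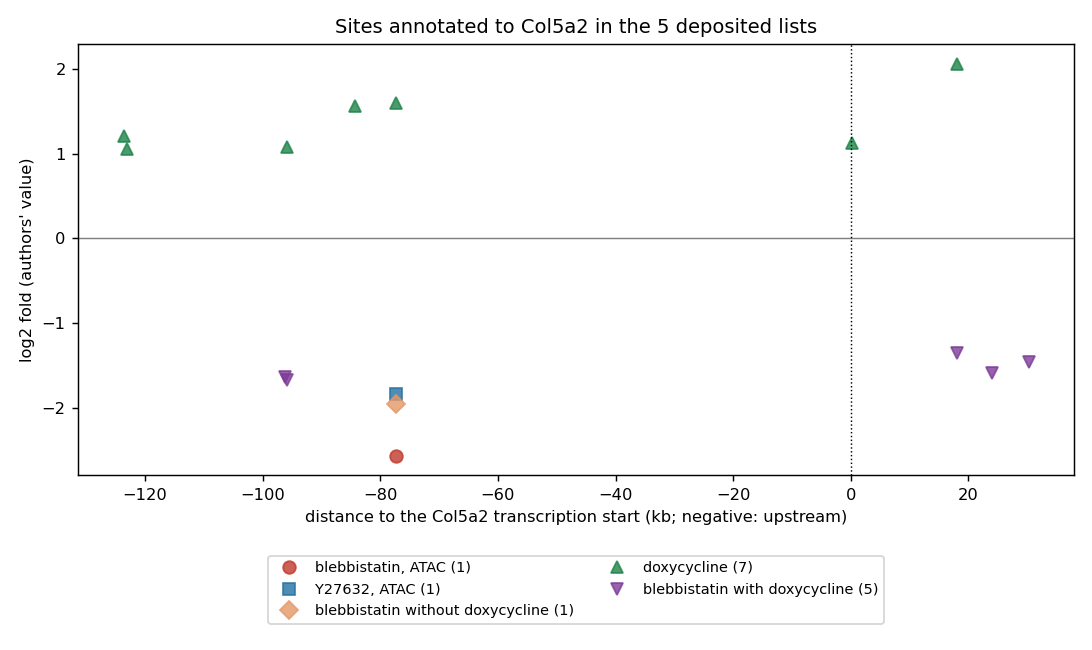
Log2 fold of the authors' deposited tables (vertical axis) for the 15 entries annotated to Col5a2, by distance in kb to its transcription start (horizontal axis, negative values upstream), with a symbol for each of the 5 lists and the number of entries in brackets. The 7 doxycycline entries lie above 0, the 8 others below, and the symbols at 77.3 kb upstream belong to 4 lists.

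Other Col5a2 sites in the authors' deposited tables include the one over its first exon, annotated as 5′ UTR, with a log2 fold of 1.12 with doxycycline, and 3 in its first intron that were lower in blebbistatin with doxycycline, at -1.35, -1.46 and -1.59. The site at chr1:45485154-45485282 in that intron appears in the authors' deposited tables for doxycycline, at 2.06, and for blebbistatin with doxycycline, at -1.35. Of the 29 places 5 were in both of these lists, higher with doxycycline and lower when blebbistatin was added: 2 of Col5a2, 2 of Col11a1 and 1 of Col14a1. The share of all sites that were in both lists is not given here, so this count cannot be read as particular to the collagens. These lists share the libraries with doxycycline alone. Apart from those 5 places, 12 of the 17 collagen sites of the doxycycline list were in only 1 of the 2 lists. The same held for 11 of the 16 of the other list. Neither list holds an absolute log2 fold under 1, so absence from a list does not mean that a site was unchanged.

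For Col12a1 the authors' deposited tables list 2 sites annotated as promoter, both higher with doxycycline, at chr9:79718529-79718980 (log2 fold 1.14) and chr9:79719519-79719672 (1.10), and another in intron 35 of 65 (1.03). Both promoter sites lie inside the RefSeq span of the gene, which runs from 79598987 to 79721141. For Col5a1 the authors' deposited tables list 4 sites, all lower in blebbistatin with doxycycline. Of these, chr2:27810066-27810383, 76.2 kb upstream, had the largest fold, -1.63 with an FDR of 2.00e-12, and chr2:27889243-27889468 lies in intron 1 of 65 (-1.01). For Col3a1 the authors' deposited tables list 3 sites, all lower in blebbistatin with doxycycline, the nearest 2.32 kb before its start (-1.27). Another of them, 44.6 kb from that start (-1.32), lies between the ends of Col3a1 and Col5a2, genes whose RefSeq spans are 24.6 kb apart on chromosome 1.

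For Col11a1 the authors' deposited tables list 7 entries, among them 1 in intron 1 of 66 that was lower with blebbistatin without doxycycline (log2 fold -1.59, FDR 0.0213) and 2 distal places present in the doxycycline and the blebbistatin with doxycycline lists. Col14a1 had 3 entries and Col1a2 had 2, the latter 97.7 kb upstream, lower in blebbistatin with doxycycline, and 86.4 kb upstream, higher with doxycycline (log2 fold 1.01).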

How the data were processed

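RNA-seq of 9 libraries and site lists from 21 chromatin libraries were used. The RNA signal deposited by the authors is reads divided by each library's size factor, from which whole reads (tolerance 0.01) were recovered. The authors deposited site lists with log2 group means and folds, p-values and FDR, and a distance to the nearest start. The submitters' processing notes name HISAT2, featureCounts, DESeq2, Bowtie2, Picard, SAMtools, MACS2, DiffBind, HOMER and mm10, with no role or version; strand use is not given in the sources used here. Sample columns without a label numbered 0.

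Genes reaching a mean of 10 normalised counts were tested with limma 3.58.1 (R 4.3.3, trend) on log2(normalised count + 1), which understates changes of low genes. Printed counts are scaled jointly over 9 libraries. Blebbistatin and Y27632 were compared with edgeR 4.0.16 (quasi-likelihood, TMM) on recovered reads, because the 2 tables were scaled separately. P-values were Benjamini-Hochberg adjusted over all genes and called under 0.05. Scripts were tested on simulated data. Alternatives, including DESeq2 1.42.0, are in the closing section.

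The members and lists were chosen with earlier results of these data known. Named genes are the 9 collagens, from each list the 3 largest called changes per comparison and relatives of the same family, and, for 5 collagens, the 3 nearest profiles; names picked later are marked as such, and non-fibrillar collagens are in the closing section. A planned order of levels per transcript length was not made, so levels of different genes are not compared. The doxycycline list heads its reference column with words for blebbistatin alone; by the labels and the list's name it was read as the group with neither drug. Annotated distances matched GRCm38 gene starts within 300 bases for 34 of 37 sites.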

Additional observations from a re-analysis of the deposited data

How the results depend on the processing

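Of 369 alternative values of the 9 collagens' log2 changes, 21 changed their side of the threshold and none of the called values reversed. Those 21 are given beside their results, apart from Col1a2 with blebbistatin under TMM scaling with limma (adjusted p = 0.0522) and, without a filter on low values, Col3a1 and Col5a1 in the direct comparison (edgeR adjusted p = 0.00427 and 0.00601); the cause was not tested. Leaving out 1 library at a time gave 5 to 6 collagens lower with blebbistatin, 0 to 2 higher and 3 to 5 lower with Y27632, and 4 to 7 lower in the direct comparison. No pairing by replicate number was seen: same-numbered libraries correlated at -0.08 to 0.05 and differently numbered ones at -0.09 to 0.09. With 3 libraries per group this cannot exclude a shared culture, animal or batch. With the replicate block, the count of collagens higher with Y27632 was 0 in place of 1, as given beside Col3a1 (limma adjusted p = 0.105). At an FDR of at most 0.01, the sites of blebbistatin without doxycycline numbered 1 in place of 2. Adding sites by position, an alternative chosen after seeing the data, moved no list's count by over 1.5 times. Of 144 ratio values that leave out a library, none moved by more than the SD between replicates. Leaving out 1 of 3 libraries cannot move a mean by more than that SD, so this count says nothing about stability. Depth does not limit the abundant transcripts; 3 libraries per group and the absence of site values per library in what was used do.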

Other observations

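Some collagens outside the fibril also differed. Types VI and IV, apart from Col6a5 and Col6a6, were chosen for mention after their values were seen. The type VI chains Col6a1, Col6a2 and Col6a3, which form beaded filaments around cells, were higher with blebbistatin by log2 changes of 0.25, 0.28 and 0.63 (limma adjusted p = 9.23e-05, 0.000201 and 3.66e-06) and with Y27632 by 0.12, 0.19 and 0.46 (0.00821, 0.00144 and 9.11e-05). Other type VI chains went the other way: with blebbistatin Col6a5 changed by -0.83 (limma adjusted p = 0.0239, lost without DMSO replicate 2 at 0.0927, DMSO replicate 3 at 0.0645 or blebbistatin replicate 3 at 0.0717) and Col6a6 by -0.71 (0.0107, lost without DMSO replicate 1 at 0.0555). The Col6a5 call was lost as well with DESeq2 (adjusted p = 0.0812) and without a filter on low values (limma adjusted p = 0.0595). Col6a5 was low, at 25.2 ± 5.81 normalised counts (SD, n = 3) with DMSO and 13.5 ± 1.66 with blebbistatin. With Y27632 Col6a6 changed by -1.08 (limma adjusted p = 0.000401), and Col6a5 did not pass (0.510). Col28a1 was lower by log2 changes of -0.76 with blebbistatin and -0.78 with Y27632 (limma adjusted p = 0.00162 and 0.00179). Col17a1 changed by -0.85 with Y27632 (limma adjusted p = 0.0343), a call lost without DMSO replicate 1 (0.135), DMSO replicate 3 (0.0596), Y27632 replicate 1 (0.0931) or Y27632 replicate 2 (0.104). It was lost as well with DESeq2 (adjusted p = 0.0895), without a filter on low values (limma adjusted p = 0.0792) and with the replicate block (0.0513). Its level was low, at 24.3 ± 5.42 normalised counts (SD, n = 3) with DMSO and 13.0 ± 3.42 with Y27632. The basement membrane chain Col4a1 went from 14928 ± 1018 normalised counts (SD, n = 3) to 24494 ± 744 with blebbistatin and 17283 ± 387 with Y27632, log2 changes of 0.71 and 0.21 (limma adjusted p = 5.43e-08 and 0.00175). Col8a1, a network-forming chain, went the other way, from 4917 ± 114 to 2632 ± 64.1 and 3795 ± 75.1, log2 changes of -0.90 and -0.37 (6.00e-10 and 1.77e-06). Of 19 tested non-fibrillar collagens, 8 were higher and 5 lower with blebbistatin, and 6 higher and 5 lower with Y27632, where 26.1% and 26.9%, and 18.1% and 17.8%, of all genes were called; the lower count with blebbistatin was 3 without DMSO replicate 1, DMSO replicate 2 or blebbistatin replicate 3, and that with Y27632 was 3 without DMSO replicate 1.

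No site carried the gene name Col1a1, but sites next to that gene were looked for by position, after the lists had been seen. In the authors' deposited table for doxycycline, the sites ranked 1, 2, 4 and 5 of 7613 by p-value lie on chromosome 11 between 528 and 2122 bases past the downstream end of Col1a1. The table names Hils1 as the gene with the nearest start, and annotates the site ranked 4 to the transcript end of Col1a1 itself. Their log2 folds in the authors' deposited table are 3.22, 3.66, 3.41 and 3.18, with log2 group means rising from 4.90 to 8.12, 4.08 to 7.75, 4.23 to 7.65 and 4.18 to 7.36. In the authors' deposited table, of 7613 sites a total of 12 have an absolute log2 fold of at least 3. None of the other lists has a site within 5 kb of Col1a1. The labels do not say what doxycycline induces or whether the cells carry an inserted construct, so these folds cannot be read as a change of the native locus, and the source of the signal was not tested.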
